A study of Saccharomyces cerevisiae with 8 samples.

Results

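Yeast genes that carry only a systematic name, such as YML131W, have usually not been tied to a function that earned them a standard name. Among them, 73 differed in mRNA level between budding yeast cells with and without modification of the wobble uridine of tRNA anticodons (U34). They are described here by direction, by their response to loss of HEL2 and by their neighbours along the chromosome. The members were selected on measured values. Of the 6337 genes in the deposited table, 1343 had no gene symbol beside the systematic name, and 717 of these had a mean level of at least 5 CPM (a gene's counts scaled to a fixed library total) over the 8 libraries. A gene was a member where the log2 ratio of its mean CPM in the 4 libraries without U34 modification to that in the 4 libraries with it, after adding 0.5 CPM to both, was 0.6 or more in either direction. One gene, YJL144W, was left out by the rule itself. The ratio chose the members and is given below as a description with no test. Loss of HEL2 had equal weight on both sides of the ratio, but a gene high or low in the triple mutant alone could pass, so that the rule is not free of the effect of HEL2 in cells without U34 modification.

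In U34 of several tRNAs, Elp6 (a subunit of Elongator) is needed for a side chain at one position of the base and Ncs2 for a sulfur at another, and without them codons such as AAA and CAA are decoded slowly. Slow ribosomes can be run into by those behind them, and the ubiquitin ligase Hel2 marks such collided ribosomes and thereby starts ribosome-associated quality control. The study asked what this pathway does in cells that lack the modifications.

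Poly(A) RNA of 4 strains was sequenced with 2 replicates each, and all strains were of the BY4741 background, mating type a, with the alleles his3Δ1, leu2Δ0 and ura3Δ0. The wild type was also labelled met15Δ0, hel2∆ carried hel2Δ::LEU2, ncs2∆elp6∆ carried ncs2Δ::HIS3MX and elp6Δ::URA3, and ncs2∆elp6∆hel2∆ carried the 3 disruptions together. Cells were grown in rich medium (YPD) at 30 °C. The study calls the mRNA replicates of ncs2∆elp6∆ and ncs2∆elp6∆hel2∆ biological. It names 3 for ncs2∆elp6∆ and 2 for ncs2∆elp6∆hel2∆, whereas 2 of each were used here. Whether replicates came from separate cultures is not given in the labels, so that p-values measure the spread between these libraries, which may be partly technical.

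Library totals ranged from 13252947 to 23941037 counts. HEL2, NCS2 and ELP6 counts followed the labels, with 0 to 11 counts where the gene was deleted and at least 582 elsewhere. MET17 (also called MET15) had 0 to 6 counts in the 4 wild-type and hel2∆ libraries and 4321 to 6651 in the 4 libraries without U34 modification, although the label of hel2∆ names no met15 allele. Hence U34 modification and MET17 expression cannot be told apart in the ratio that chose the members, nor can the HIS3MX and URA3 markers. The same holds below wherever the change with loss of HEL2 is compared between strains with and without U34 modification. Likewise, loss of HEL2 cannot be told apart from the LEU2 marker in the comparisons below, since both strains without HEL2 carry that marker in its place. No member lay within 2 places of HEL2, NCS2, ELP6, MET17 or HIS3 in the systematic order.

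Most of the members were higher without U34 modification. Of the 73, 55 were higher and 18 lower, which is 75.3% higher, against 71.2% of the 396 genes with a symbol that passed the same level and ratio (282 higher, 114 lower). Members made up 10.2% of the 717 unnamed genes at this level, and 8.23% of 4810 genes with a symbol passed the ratio. The median log2 ratio was 0.80 for the higher members and -0.94 for the lower ones, beside 0.12 over all 5528 genes of at least 5 CPM, so that on this scale a typical gene was already slightly higher. In bulk samples, a difference in all cells cannot be told apart from one in a share of them. The ratios ran from -1.72 (YDR537C) to 2.34 (YPR078C), and 14 higher and 7 lower members were at least 1 log2 unit from 0. Just inside the threshold were YGR161W-C, YDL152W and YOR385W, each at 0.61, and just outside it were YOL014W at 0.60 and YKR018C and YER068C-A at 0.58.

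Expression of most members was low. Their mean CPM ranged from 5.19 to 2632 with a median of 22.7, 22 members were under 10 CPM, and the lowest count of any member in a library was 30. The SD between replicates of a strain was typically 7.53% of the mean (median over members and strains). The 4 libraries without U34 modification did not overlap the 4 with it in 49 of 55 higher and 15 of 18 lower members, a count that the selection itself favours (background over all genes of at least 5 CPM: 40.4%). The direction depended on scaling for no member, but the number did. With trimmed-mean (TMM) scaling the rule gave 62 genes, 38 higher and 24 lower, of which 56 were among the 73.

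**Figure D1:**
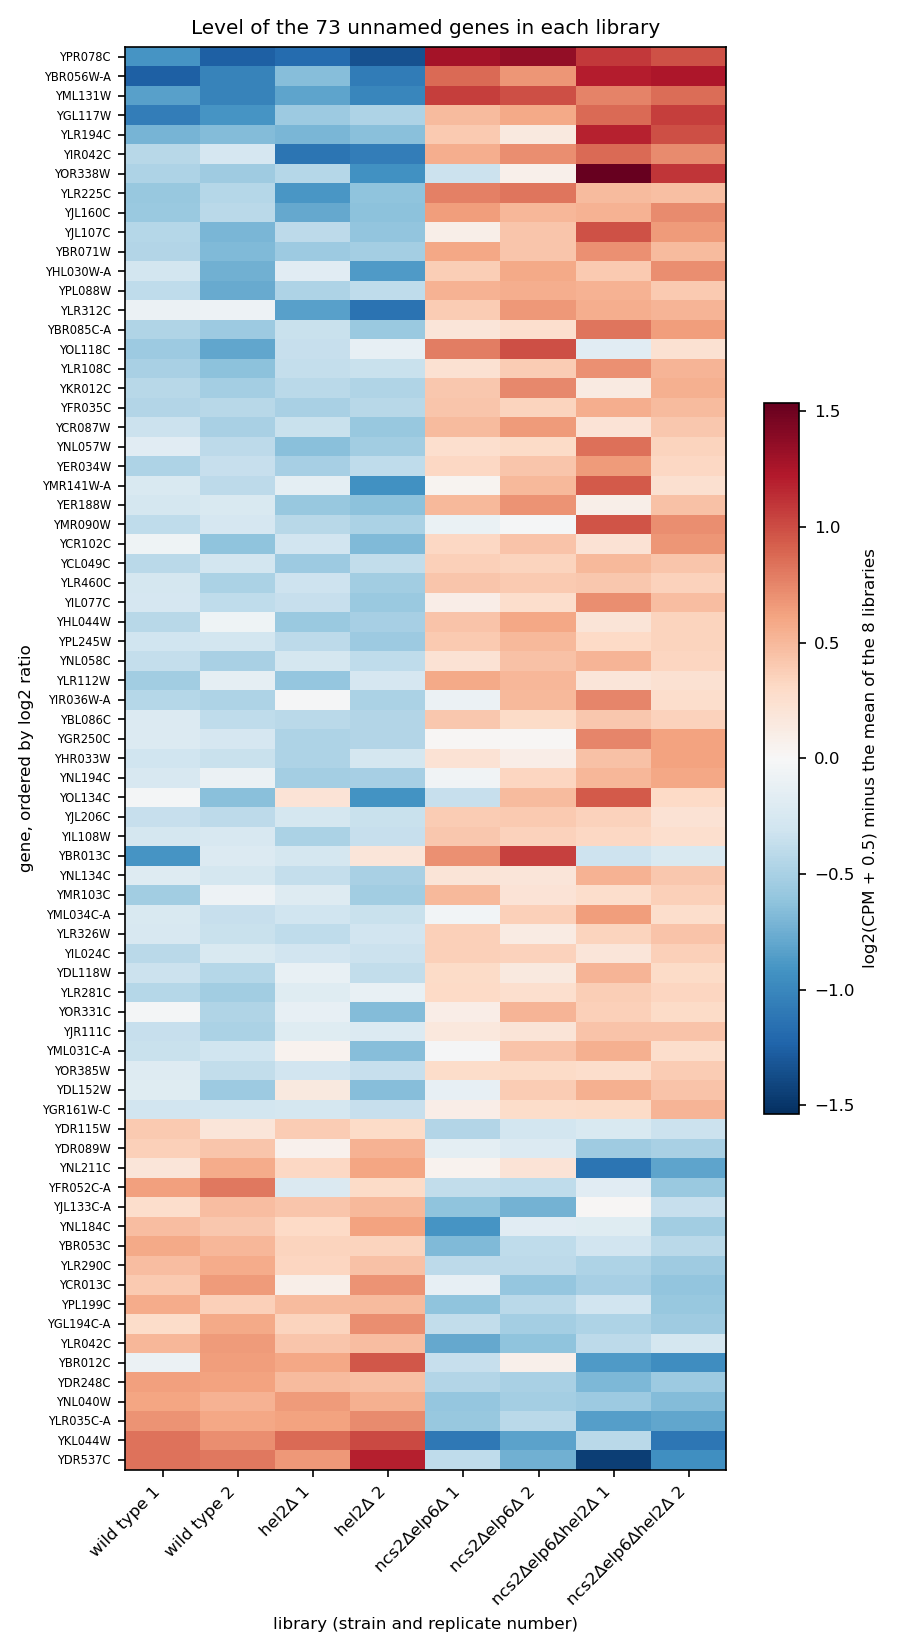
Level of each of the 73 unnamed genes (rows, ordered by log2 ratio from highest to lowest) in each of the 8 libraries (columns), as log2(CPM + 0.5) minus the gene's mean over the libraries. Most of the 55 higher genes turn from blue to red between hel2∆ and ncs2∆elp6∆ and most of the 18 lower genes the other way. YMR090W, YOR338W, YBR013C, YOL118C and YNL211C are among the exceptions to an even pattern.

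A current annotation described many of the genes that the deposited table left unnamed. In the RefSeq annotation of the same genome build (R64), 18 members had a symbol of their own (11 higher, 7 lower), 7 had a described product (3 higher, 4 lower), 31 had a product given as uncharacterised, some with a note on function (29 higher, 2 lower), 1 belonged to a retrotransposon (lower) and 16 had no entry (12 higher, 4 lower). The share with no entry, 21.9%, compares with 23.3% of all unnamed genes at this level. Among the 57 members with an entry, the median coding length was 834 nt, beside 961.5 nt for unnamed genes and 1266 nt for all genes at this level. Codons AAA, CAA and GAA, which are read by tRNAs with the sulfur-containing U34, made up a median of 11.1% of codons, beside 10.5% in unnamed genes and 11.4% in all genes. Within 30 kb of a chromosome end lay 7 of the 57 (12.3%), all of them higher members, beside 7.27% of unnamed genes and 4.11% of all genes.

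Predicted oxidoreductases were among the higher members. A search of the annotation text for dehydrogenase, oxidoreductase or aldehyde reductase, made after the members were known, found 5 of the 43 higher members with an entry (11.6%), 1 of the 14 lower members (7.14%) and 22 of 550 unnamed genes at this level. The highest of them was YML131W (chrXIII:10198-11295, plus strand), which resembles medium-chain dehydrogenases and is known to respond to stress. It had 40.2 and 35.2 CPM in wild type and 41.03 and 35.9 CPM in hel2∆, with 152 and 144 CPM in ncs2∆elp6∆ and 123 and 131 CPM in ncs2∆elp6∆hel2∆. Its log2 ratio was 1.84, and the 4 libraries without U34 modification lay far above the other 4, with ncs2∆elp6∆ slightly above ncs2∆elp6∆hel2∆.

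The most abundant oxidoreductase was YNL134C (chrXIV:372451-373581, minus strand), an NADH-dependent aldehyde reductase that detoxifies furfural. It had 138 and 132 CPM in wild type and 123 and 113 CPM in hel2∆, with 182 and 180.4 CPM in ncs2∆elp6∆ and 231 and 213 CPM in ncs2∆elp6∆hel2∆. All libraries without U34 modification were above those with it (log2 ratio 0.67), and the triple mutant was highest. YLR460C and YCR102C, both of the quinone oxidoreductase family, had ratios of 0.80 and 0.82 at lower levels of 7.43 to 15.05 CPM and 3.60 to 9.98 CPM. These 2 genes are near copies of each other, with 94.0% identity over 1107 nt, and YLR460C shared 72.8% identity with YNL134C over 1118 nt, and how far reads of YLR460C and YCR102C were separated was not tested. The fifth, YPL088W, a putative aryl alcohol dehydrogenase, had a ratio of 1.01.

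Cell wall or plasma membrane words, searched in the same way, were found in 7 of the 43 higher members (16.3%), in 3 of the 14 lower members (21.4%) and in 7.45% of unnamed genes at this level, so that they did not mark one direction. YLR194C (NCW2, chrXII:540809-541573, minus strand) encodes a GPI-anchored protein of cell wall remodelling and had 84.5 and 86.8 CPM in wild type and 84.6 and 88.6 CPM in hel2∆, with 184 and 154 CPM in ncs2∆elp6∆ and 315 and 277 CPM in ncs2∆elp6∆hel2∆. Its log2 ratio was 1.43, the wild-type and hel2∆ libraries lay close together, and the order from ncs2∆elp6∆ to ncs2∆elp6∆hel2∆ was upward. YJL160C (PIR5), a member of a cell wall protein family with internal repeats, had a ratio of 1.20. Other higher members are noted as induced by stress, for which no list was counted. YBR056W-A (MNC1), a small putative membrane protein induced by heavy metals, had 1.87 to 3.07 CPM in the libraries with U34 modification and 8.49 to 12.9 CPM in those without. YPR078C, a heat-inducible gene with the highest ratio of all members, had 3.48 and 2.64 CPM in wild type and 2.78 and 2.45 CPM in hel2∆, with 17.6 and 18.5 CPM in ncs2∆elp6∆ and 15.3 and 14.2 CPM in ncs2∆elp6∆hel2∆. YBR056W-A, YPR078C and YJL160C passed the level minimum of the rule only through the libraries without U34 modification.

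YJL107C (chrX:218853-220016, minus strand), which is induced through the osmotic stress kinase Hog1, had 12.6 and 10.5 CPM in wild type and 12.96 and 11.3 CPM in hel2∆, with 18.6 and 23.4 CPM in ncs2∆elp6∆ and 34.6 and 27.5 CPM in ncs2∆elp6∆hel2∆. It overlaps YJL108C (chrX:217705-218856) on the same strand by a few bases only. YLR225C (chrXII:587695-588918, minus strand), a cytoplasmic protein of unknown function, had 67.4 and 74.2 CPM in wild type and 53.99 and 65.7 CPM in hel2∆, with 173 and 179 CPM in ncs2∆elp6∆ and 142 and 139.8 CPM in ncs2∆elp6∆hel2∆. Its ratio of 1.27 was set by both strains without U34 modification, with ncs2∆elp6∆ above ncs2∆elp6∆hel2∆. YBR071W (chrII:380411-381046, plus strand), found in the cytoplasm and bud neck, had 52.2 and 44.6 CPM in wild type and 48.1 and 49.7 CPM in hel2∆, with 108 and 96.1 CPM in ncs2∆elp6∆ and 116 and 100.3 CPM in ncs2∆elp6∆hel2∆, and its log2 ratio was 1.10.

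One higher member with a symbol belonged to amino acid metabolism. YGL117W (ARO5, chrVII:288512-289309, plus strand) acts in aromatic amino acid synthesis and is induced by Gcn4, the activator that is translated when amino acids or charged tRNAs run short. It had 10.4 and 11.6 CPM in wild type and 14.9 and 15.8 CPM in hel2∆, with 31.3 and 33.4 CPM in ncs2∆elp6∆ and 40.9 and 47.1 CPM in ncs2∆elp6∆hel2∆. Its log2 ratio was 1.5, hel2∆ was above wild type in both libraries, and the triple mutant was above ncs2∆elp6∆. The autophagy receptors YLR312C (ATG39, of the nucleus) and YIL024C (ATG45, of glycogen) had ratios of 1.00 and 0.63, and the peroxisomal protein YJR111C (PXP2) had one of 0.62.

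Further higher members with an annotation entry had ratios between those of YOR385W (0.61) and YIR042C (1.39). They included YNL194C (0.70), a membrane protein similar to SUR7, YIL108W (0.68), a putative metalloendopeptidase, YHR033W (0.71), a paralog of the proline synthesis gene PRO1, and YJL206C (0.68), which resembles zinc cluster transcription factors. YBL086C (0.73), of the cell periphery, YPL245W (0.77), of nucleus and cytoplasm, YCL049C (0.82), of membranes, YER034W (0.87), induced by calcium shortage, and YHL044W (0.78), of a family of membrane proteins, were higher as well. No function was noted for YFR035C (0.90), YER188W (0.86) and YLR112W (0.76), and YFR035C overlaps another gene on the opposite strand. YIR042C, of unknown function, had 4.88 and 5.58 CPM in wild type and 2.83 and 2.98 CPM in hel2∆, with 10.2 and 11.4 CPM in ncs2∆elp6∆ and 12.7 and 11.5 CPM in ncs2∆elp6∆hel2∆, and both hel2∆ libraries were below wild type.

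Among the lower members, several had mitochondrial words in their annotation. A search of the annotation text for mitochondrial words, again made after the members were known, found 6 of the 14 lower members with an entry (42.9%), 2 of the 43 higher members (4.65%) and 17.6% of unnamed genes at this level. The 6 include YNL040W, whose note names mitochondrial beside cytoplasmic tRNAs as its substrates. Genes with a symbol were not searched. YLR290C (COQ11, chrXII:717145-717978, minus strand), a subunit of coenzyme Q synthesis complexes, had 45.2 and 48.3 CPM in wild type and 40.6 and 44.5 CPM in hel2∆, with 24.3 and 24.2 CPM in ncs2∆elp6∆ and 23.1 and 22.1 CPM in ncs2∆elp6∆hel2∆. All libraries without U34 modification were well below the others, and the strains with and without HEL2 lay close together in both groups. YDR115W (MRX14), a putative protein of the large mitochondrial ribosomal subunit, had 74.1 and 63.8 CPM in wild type and 73.5 and 68.8 CPM in hel2∆, with 40.8 and 45.9 CPM in ncs2∆elp6∆ and 47.5 and 44.1 CPM in ncs2∆elp6∆hel2∆, and its ratio of -0.65 was the nearest to 0 among the lower members. YDR115W overlaps YDR114C on the opposite strand.

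Other mitochondrial genes stood in the lower group. YKL044W (MMO1, chrXI:356322-356642, plus strand) had 10.95 and 10.04 CPM in wild type and 11.3 and 12.5 CPM in hel2∆, with 2.51 and 3.14 CPM in ncs2∆elp6∆ and 4.34 and 2.49 CPM in ncs2∆elp6∆hel2∆, a log2 ratio of -1.69. YNL211C (MRX7), associated with mitochondrial ribosomes, had a ratio of -0.74, and YJL133C-A (DPI8), a putative mitochondrial protein, one of -0.81. In the opposite direction, YIL077C (RCI37), which associates with the large mitochondrial ribosomal subunit, and YLR281C (RSO55), a rescue factor for stalled mitochondrial ribosomes, had ratios of 0.80 and 0.63.

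A pair of lower members acts on tRNA charging and on mRNA decay. YNL040W (chrXIV:553380-554750, plus strand), a hydrolase that removes mischarged serine from tRNA in the cytoplasm and in mitochondria, had 71.7 and 68.1 CPM in wild type and 74.1 and 68.4 CPM in hel2∆, with 30.7 and 32.3 CPM in ncs2∆elp6∆ and 31.5 and 29.4 CPM in ncs2∆elp6∆hel2∆. YPL199C (chrXVI:172033-172755, minus strand), which takes part in decay of mRNAs without a stop codon, had 183 and 159.7 CPM in wild type and 174 and 173 CPM in hel2∆, with 80.1 and 92.5 CPM in ncs2∆elp6∆ and 100.3 and 81.97 CPM in ncs2∆elp6∆hel2∆. The log2 ratios were -1.17 and -0.95, and for both genes hel2∆ lay with wild type and the triple mutant with ncs2∆elp6∆.

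Metabolic and signalling genes completed the lower group. YDR248C (chrIV:957758-958339, minus strand), a putative gluconokinase, had 36.8 and 36.3 CPM in wild type and 33.1 and 32.7 CPM in hel2∆, with 17.1 and 16.5 CPM in ncs2∆elp6∆ and 14.4 and 15.8 CPM in ncs2∆elp6∆hel2∆. YLR042C (NFG1, chrXII:229966-230451, minus strand), a negative regulator of filamentous growth, had 36.3 and 39.99 CPM in wild type and 34.3 and 35.3 CPM in hel2∆, with 14.4 and 16.3 CPM in ncs2∆elp6∆ and 19.05 and 20.95 CPM in ncs2∆elp6∆hel2∆, with both triple mutant libraries above both ncs2∆elp6∆ libraries. For both genes the 4 libraries without U34 modification lay below the other 4. YDR089W (VTC5), a vacuolar regulator of polyphosphate synthesis, had 91.2 and 95.5 CPM in wild type and 74.3 and 103 CPM in hel2∆, with 63.9 and 61.04 CPM in ncs2∆elp6∆ and 48.2 and 50.00 CPM in ncs2∆elp6∆hel2∆, a ratio of -0.70. YGL194C-A, a short protein of the endoplasmic reticulum, had a ratio of -0.97. YBR053C, a gene induced by cell wall perturbation, had 109 and 104 CPM in wild type and 92.5 and 92.2 CPM in hel2∆, with 45.4 and 55.4 CPM in ncs2∆elp6∆ and 59.4 and 54.7 CPM in ncs2∆elp6∆hel2∆, a ratio of -0.88.

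The most abundant member was a retrotransposon gene. YLR035C-A (chrXII:215440-218907, minus strand) is part of a mutant Ty element and had 3837 and 3588 CPM in wild type and 3645 and 3937 CPM in hel2∆, with 1583 and 1785 CPM in ncs2∆elp6∆ and 1316 and 1363 CPM in ncs2∆elp6∆hel2∆. Its log2 ratio was -1.31, and the triple mutant was lowest. It matched 21 other coding sequences at 95% identity or more over at least 100 nt, the closest being YER160C at 99.7%. None of these 21 had a row in the table, so its count may hold reads from the whole Ty family and is uncertain as a measure of this single copy. YNL184C, another lower member, shares sequence with the overlapping YNL185C and is likewise uncertain.

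With loss of HEL2 in cells with U34 modification no member was called, a share near that of all genes. In hel2∆ against wild type, 0 of 73 members had an adjusted p under 0.05 by edgeR's quasi-likelihood test over 6087 genes (background 0.657% in any direction, 0.312% higher and 0.345% lower), and DESeq2 also called 0. By edgeR, 0 of the other 644 unnamed genes of at least 5 CPM were called too. Among the 396 genes with a symbol that passed the ratio, 20 were called (5.05%). At an unadjusted p under 0.05 there were 8 members (10.96%), beside 5.14% of all genes tested. Fitted log2 fold changes of the members ranged from -0.99 to 0.62, with medians of 0.02 for the higher and 0.08 for the lower members, and the lowest adjusted p was 0.221. That p belonged to YGL117W, at a log2 fold change of 0.54 ± 0.13 (SE, adjusted p = 0.221). The lowest values, -0.99 ± 0.25 (SE, adjusted p = 0.247) for YLR312C and -0.78 ± 0.20 (SE, adjusted p = 0.274) for YIR042C, were read from levels under 6 CPM in wild type.

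In cells without U34 modification, loss of HEL2 changed 13 of 73 members (17.8%). In ncs2∆elp6∆hel2∆ against ncs2∆elp6∆, 10 members were called higher (13.7% of members, background 2.81%) and 3 lower (4.11% of members, background 4.12%), against a background of 6.93% in any direction. The share called lower was thus near that of all genes. Of the 13, 11 came from the 55 higher members and 2 from the 18 lower ones. The share was 4.81% among the other 644 unnamed genes of at least 5 CPM, and 23.7% among the 396 genes with a symbol that passed the ratio, a group chosen by the same ratio. Because that ratio includes the triple mutant, the rule favours such calls, and nothing is read from their excess over all genes. YGR250C, YMR090W and YOR338W, for example, passed it mainly through the triple mutant. This split depends on the scaling, since over all genes 40.5% of calls were higher with TMM and 22.9% with library totals, and YNL134C, YIL077C and YLR108C lost their call with library totals.

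Single libraries weighed on this count. Leaving out ncs2∆elp6∆ replicate 1, ncs2∆elp6∆ replicate 2 or ncs2∆elp6∆hel2∆ replicate 1 left 3 of the 13 calls each time, those of YGR250C, YMR090W and YLR194C. Over all genes the same omissions left 72, 69 and 72 of 422 calls in number. Without ncs2∆elp6∆hel2∆ replicate 2, 10 of the 13 remained.

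**Figure D2:**
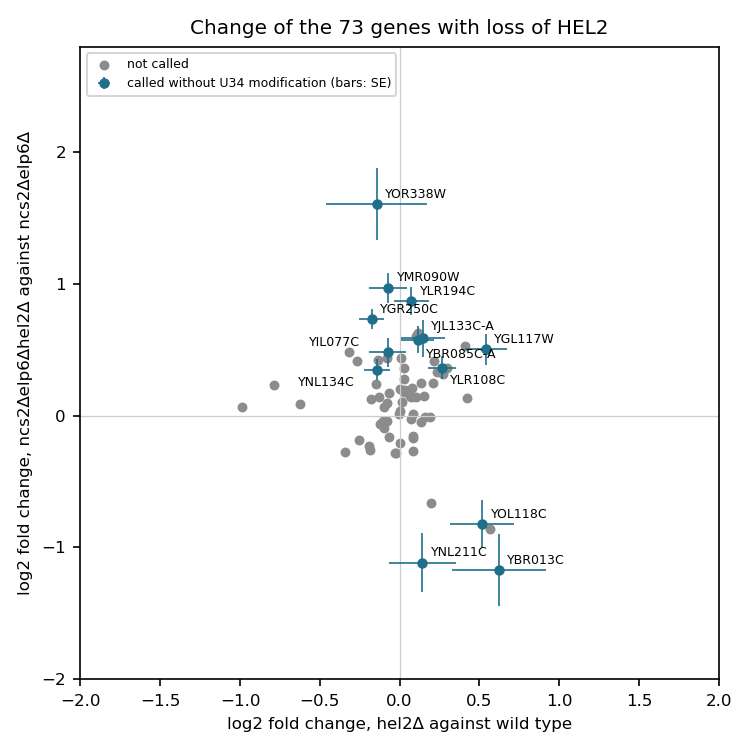
Log2 fold change with loss of HEL2 in cells with U34 modification (hel2∆ against wild type, horizontal) and without it (ncs2∆elp6∆hel2∆ against ncs2∆elp6∆, vertical) for the 73 genes. Blue points are the 13 genes called in the vertical comparison, with bars of 1 standard error, and they spread from -1.17 to 1.61 vertically, while none was called horizontally.

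The change with loss of HEL2 was tested for a difference between both backgrounds (interaction). It differed for 3 of 73 members, all higher (4.11%, background 1.13% in any direction, 0.969% higher and 0.164% lower), whereas 1 of the other 644 unnamed genes (0.155%) and 10.1% of the 396 genes with a symbol past the ratio were called. The 3 were YGR250C, YMR090W and YLR194C. Again the rule favours such calls, most directly for YGR250C and YMR090W, and the excess over all genes is not read as a result. DESeq2 called 8 members, namely these 3, YOR338W and YNL134C higher and YOL118C, YBR013C and YNL211C lower. The fit used the same libraries as the comparison above, so the 2 counts are not independent.

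YGR250C (RIE1, chrVII:991176-993521, minus strand) encodes an RNA-binding protein that holds the mRNA of the G1 cyclin CLN3 in stress granules. It had 69.8 and 67.00 CPM in wild type and 57.9 and 58.6 CPM in hel2∆, with 81.2 and 81.4 CPM in ncs2∆elp6∆ and 135 and 124 CPM in ncs2∆elp6∆hel2∆. The hel2∆ libraries were the lowest, ncs2∆elp6∆ was little above wild type, and both triple mutant libraries stood well above all others. The log2 fold change with loss of HEL2 was -0.18 ± 0.08 (SE, adjusted p = 0.959) with U34 modification and 0.73 ± 0.08 (SE, adjusted p = 0.000601) without it, and the difference between them was 0.91 ± 0.11 (SE, adjusted p = 0.00213). This difference kept its call under each alternative tried.

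YMR090W (chrXIII:449245-449928, plus strand) resembles dTDP-glucose dehydratases and is cytoplasmic. It had 24.7 and 27.2 CPM in wild type and 24.2 and 23.2 CPM in hel2∆, with 30.4 and 32.2 CPM in ncs2∆elp6∆ and 64.1 and 53.8 CPM in ncs2∆elp6∆hel2∆. Here the 6 libraries other than those of the triple mutant were close, and the triple mutant was far above them. The log2 fold change was -0.07 ± 0.12 (SE, adjusted p = 0.998) with U34 modification and 0.97 ± 0.11 (SE, adjusted p = 0.00134) without, with a difference of 1.04 ± 0.16 (SE, adjusted p = 0.0145). The call of the difference was lost without either ncs2∆elp6∆ replicate or without ncs2∆elp6∆hel2∆ replicate 1.

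YLR194C (NCW2), whose levels are given above, had a log2 fold change of 0.07 ± 0.11 (SE, adjusted p = 0.998) with loss of HEL2 in the wild-type background and of 0.87 ± 0.11 (SE, adjusted p = 0.00161) in ncs2∆elp6∆. The difference was 0.79 ± 0.15 (SE, adjusted p = 0.0408), and it lost its call in 7 of the 8 fits that each left out 1 library (all but the fit without ncs2∆elp6∆ replicate 1). For all 3 genes both ncs2∆elp6∆ libraries were above both wild-type libraries in CPM, by the widest margin in YLR194C.

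Of the remaining members called in ncs2∆elp6∆hel2∆ against ncs2∆elp6∆, YOR338W (chrXV:956898-957989, plus strand), a gene regulated by the transcription factor Azf1, had the highest value. It had 2.96 and 2.79 CPM in wild type and 3.02 and 2.002 CPM in hel2∆, with 3.32 and 4.56 CPM in ncs2∆elp6∆ and 13.4 and 9.77 CPM in ncs2∆elp6∆hel2∆, that is, under 5 CPM in every library but those of the triple mutant, through which it also passed the level minimum of the rule. The log2 fold change was 1.61 ± 0.27 (SE, adjusted p = 0.0121), and the difference from the change in the wild-type background, 1.75 ± 0.42 (SE, adjusted p = 0.104), was not called by edgeR but was by DESeq2 (adjusted p = 0.0126, range over alternatives 0.0126 to 0.346). YBR085C-A (chrII:418907-419164, minus strand), a short protein of cytoplasm and nucleus whose abundance increases in DNA replication stress, had 85.03 and 79.7 CPM in wild type and 92.6 and 78.7 CPM in hel2∆, with 134 and 140.0 CPM in ncs2∆elp6∆ and 208 and 183 CPM in ncs2∆elp6∆hel2∆. It rose by 0.58 ± 0.10 (SE, adjusted p = 0.0128), a second step above that of ncs2∆elp6∆ over wild type.

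Smaller rises with loss of HEL2 were called for 4 further higher members. YGL117W (ARO5) changed by 0.50 ± 0.12 (SE, adjusted p = 0.0373), with nearly the same fitted value in the wild-type background. YIL077C (RCI37) had 47.5 and 43.5 CPM in wild type and 44.8 and 38.5 CPM in hel2∆, with 61.6 and 68.9 CPM in ncs2∆elp6∆ and 94.6 and 79.95 CPM in ncs2∆elp6∆hel2∆ and changed by 0.48 ± 0.11 (SE, adjusted p = 0.0366). YLR108C, a nuclear protein of unknown function, changed by 0.37 ± 0.08 (SE, adjusted p = 0.0369), and YNL134C by 0.35 ± 0.08 (SE, adjusted p = 0.0361). For each of these 4 the difference between backgrounds was not called by edgeR, while DESeq2 called it for YNL134C (adjusted p = 0.025, range over alternatives 0.016 to 0.362). For YIL077C the alternatives ran from an adjusted p of 0.0164 to 0.522, the lowest with a crossed replicate block.

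In YJL133C-A (DPI8, chrX:159623-159847, minus strand), a lower member, loss of HEL2 moved the level back toward wild type. It had 38.00 and 43.8 CPM in wild type and 42.3 and 44.6 CPM in hel2∆, with 20.2 and 18.8 CPM in ncs2∆elp6∆ and 31.6 and 24.5 CPM in ncs2∆elp6∆hel2∆, and the log2 fold change was 0.59 ± 0.14 (SE, adjusted p = 0.0412). YNL211C (MRX7, chrXIV:250055-250315, minus strand) went the other way, with 10.02 and 13.2 CPM in wild type and 11.01 and 13.5 CPM in hel2∆, with 9.09 and 10.2 CPM in ncs2∆elp6∆ and 3.76 and 4.76 CPM in ncs2∆elp6∆hel2∆. Its change of -1.12 ± 0.22 (SE, adjusted p = 0.0227) left the triple mutant as the lowest strain, and ncs2∆elp6∆ overlapped wild type.

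The other 2 falls concerned members whose level was highest in ncs2∆elp6∆. YOL118C (chrXV:96608-96916, minus strand), a gene of unknown function, had 7.53 and 6.34 CPM in wild type and 8.77 and 10.4 CPM in hel2∆, with 20.1 and 23.2 CPM in ncs2∆elp6∆ and 9.98 and 13.4 CPM in ncs2∆elp6∆hel2∆. The ncs2∆elp6∆ libraries stood apart from all others, and the log2 fold change with loss of HEL2 was -0.82 ± 0.18 (SE, adjusted p = 0.0336). YBR013C (chrII:265492-265881, minus strand), also of unknown function, had 3.22 and 5.51 CPM in wild type and 5.26 and 7.43 CPM in hel2∆, with 10.8 and 13.9 CPM in ncs2∆elp6∆ and 5.10 and 5.44 CPM in ncs2∆elp6∆hel2∆, and its change was -1.17 ± 0.27 (SE, adjusted p = 0.0373). The differences from the wild-type background, -1.34 ± 0.27 (SE, adjusted p = 0.0545) for YOL118C and -1.80 ± 0.40 (SE, adjusted p = 0.0844) for YBR013C, were not called by edgeR. DESeq2 called both (adjusted p = 0.0026 and 0.00276), and over the alternatives the adjusted p ran from 0.0026 to 0.276 for YOL118C and from 0.00276 to 0.366 for YBR013C.

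**Figure D3:**
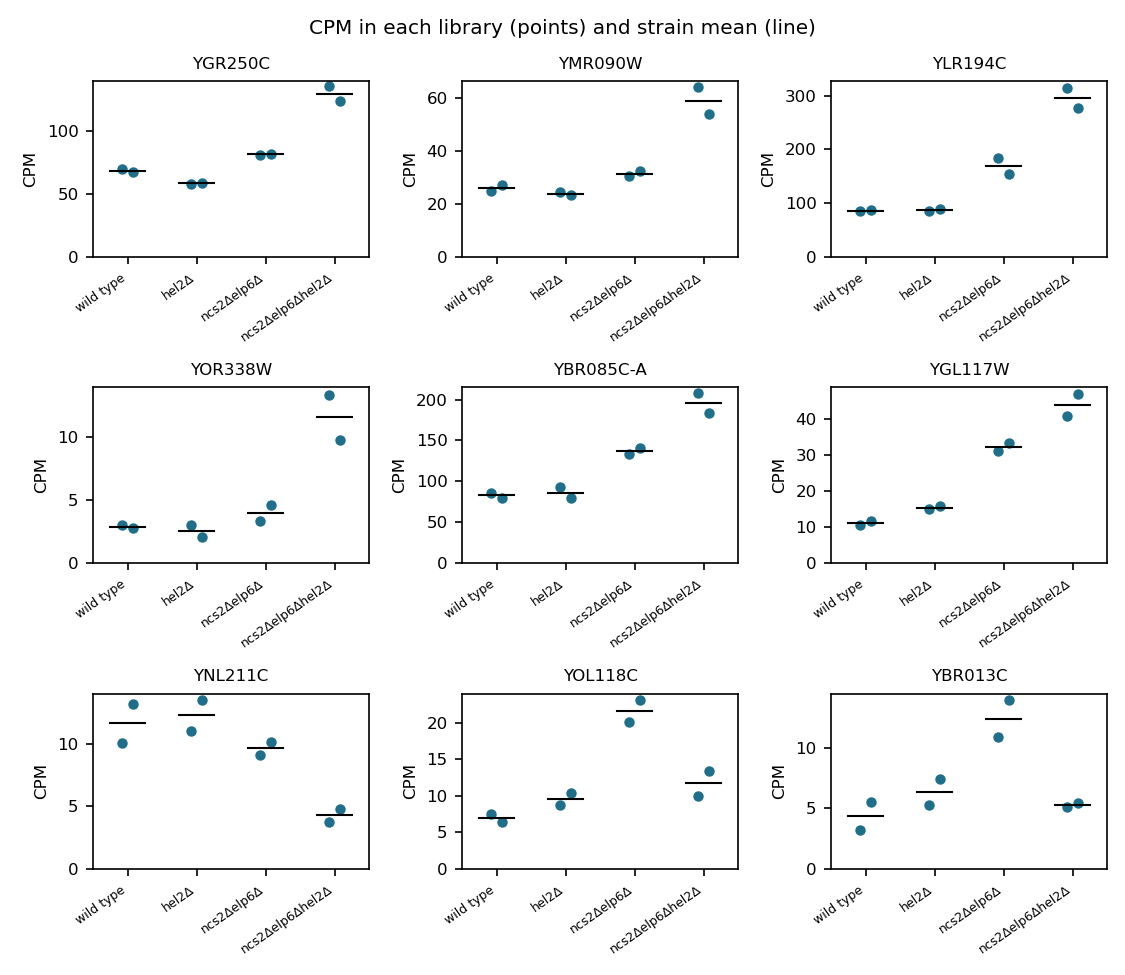
CPM in each library (points) and mean of each strain (line) for 9 of the 13 genes called in ncs2∆elp6∆hel2∆ against ncs2∆elp6∆. YGR250C and YMR090W are far highest in the triple mutant, YLR194C, YBR085C-A and YGL117W are higher in ncs2∆elp6∆ and higher again in the triple mutant, and YOL118C and YBR013C are highest in ncs2∆elp6∆.

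Seen from the side of U34 modification, 72 of 73 members had the same direction in both HEL2 backgrounds. The exception was YBR013C, whose log2 fold change without U34 modification was 1.42 where Hel2 was present and -0.37 where it was absent. The rule averaged both backgrounds, so this agreement was largely built into the selection. The medians of the higher members were 0.64 with Hel2 and 0.82 without it, and 41 of 55 had the larger change without Hel2. For the lower members the medians were -1.14 and -1.05, and 8 of 18 had the larger change without Hel2.

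Some members owed their place to a single background. YGR250C went from 0.14 with Hel2 to 1.05 without it, YMR090W from 0.17 to 1.21 and YOR338W from 0.35 to 2.11. Conversely YOL118C went from 1.53 to 0.18. For YPR078C (2.43 and 2.40), YML131W (1.86 and 1.62) and YBR056W-A (2.05 and 2.17), both backgrounds gave a large value. YPR078C, YBR056W-A, YJL160C and YLR312C were under 5 CPM in every library with U34 modification and passed the level minimum through those without it. In the lower group, YDR537C, YKL044W and YBR012C were under 5 CPM in every library without U34 modification. These lower members passed the level minimum through the libraries with it. Large values were thus favoured by the selection.

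**Figure D4:**
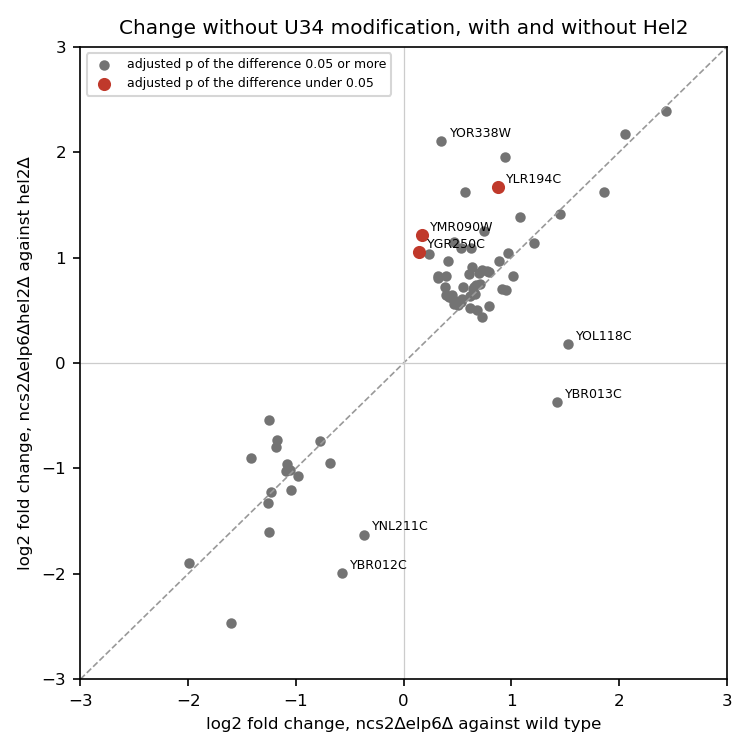
Log2 fold change without U34 modification in cells with Hel2 (ncs2∆elp6∆ against wild type, horizontal) and without Hel2 (ncs2∆elp6∆hel2∆ against hel2∆, vertical) for the 73 genes, with the dashed line marking equal values. Red points are YGR250C, YMR090W and YLR194C, whose difference was called, and YBR013C is the only point whose 2 values differ in sign.

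Promoters of the members were searched for motifs of known regulators, since several members are stress genes. The window was the 500 bases before the start codon, taken from RefSeq (R64), both strands were read, and overlapping windows of neighbouring genes were not removed. The letters CCCCT, the stress response element bound by Msn2 and Msn4, were found in 23 of 43 higher members (53.5%), in 5 of 14 lower members (35.7%) and in 34.5% of all 5802 promoters. At least 2 copies stood in 18.6% of the higher members and 8.27% of all promoters. TGACTC, the core bound by Gcn4, was found in 13.95% of the higher members, 21.4% of the lower members and 13.0% of all promoters. The heat shock element, searched as GAANNTTC or TTCNNGAA, was in 32.6%, 14.3% and 35.4%, the letters CACGTG of Pho4 and Cbf1 in 4.65%, 14.3% and 6.24%, and CCGCGG of Pdr1 and Pdr3 in 4.65%, 0% and 3.22%. The site of Leu3 was found before no member and in 0.259% of all promoters. A match describes these letters only, and binding was not tested.

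Among the 13 members called in ncs2∆elp6∆hel2∆ against ncs2∆elp6∆, matches of 7 are printed. The following windows show such matches in capitals on the strand of the gene, to set the levels above beside the letters before each gene. Of the 3 genes whose change differed between backgrounds, YMR090W had CCCCT (read here from the opposite strand, as AGGGG), while YGR250C and YLR194C had the heat shock letters. The match printed for YLR194C lies within the neighbouring gene NMT1 (chrXII:541937-543304) and not between genes. The Gcn4 core of YGL117W is likewise read from the opposite strand.
YMR090W (chrXIII:449080-449114, plus strand): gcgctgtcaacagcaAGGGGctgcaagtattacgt
YGR250C (chrVII:993738-993775, minus strand): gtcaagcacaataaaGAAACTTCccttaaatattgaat
YLR194C (chrXII:542028-542065, minus strand): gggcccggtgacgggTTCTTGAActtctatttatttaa
YOR338W (chrXV:956731-956768, plus strand): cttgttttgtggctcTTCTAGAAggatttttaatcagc
YNL134C (chrXIV:373858-373892, minus strand): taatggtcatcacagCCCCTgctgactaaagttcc
YNL134C (chrXIV:373806-373840, minus strand): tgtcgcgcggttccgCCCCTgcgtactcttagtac
YBR085C-A (chrII:419507-419541, minus strand): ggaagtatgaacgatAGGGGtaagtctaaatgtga
YGL117W (chrVII:288243-288278, plus strand): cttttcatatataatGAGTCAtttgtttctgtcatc
The first base of the match lay 150, 239, 477 and 152 bases before the start codon in YMR090W, YGR250C, YLR194C and YOR338W. In YNL134C the 2 CCCCT matches began at 296 and 244 bases, in YBR085C-A the match shown began at 362 bases, and in YGL117W, the gene induced by Gcn4, the Gcn4 core began at 254 bases. Not shown are a further CCCCT of YBR085C-A at 45 bases and further heat shock letters of YGR250C at 12 bases. Of the other called genes, YLR108C had 3 matches to CCCCT, YIL077C had the heat shock letters and CCGCGG, YJL133C-A had CCCCT and 2 matches to CACGTG, and no match was found for YNL211C, YOL118C and YBR013C.

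Neighbours were taken as the previous and next entries of the table by systematic name. Of the 55 higher members, 10 (18.2%) had a neighbour that also passed the ratio upward, beside 10.1% of all genes of at least 5 CPM and 12.1% of the 282 higher genes with a symbol. Of the 18 lower members, 5 (27.8%) had a neighbour that passed it downward, beside 3.998% of all genes and 5.26% of the 114 lower genes with a symbol. The members with no annotation entry contributed 7 of these 15, out of 16, and those with an entry 8, out of 54 with a neighbour of at least 5 CPM. YNL057W and YNL058C are neighbours of each other and both count among the 10. For members with no entry, overlap with the neighbour was not determined, so that shared reads may add to these shares. The median of the neighbours' mean ratio was 0.30 for the higher members and -0.07 for the lower ones.

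**Figure D5:**
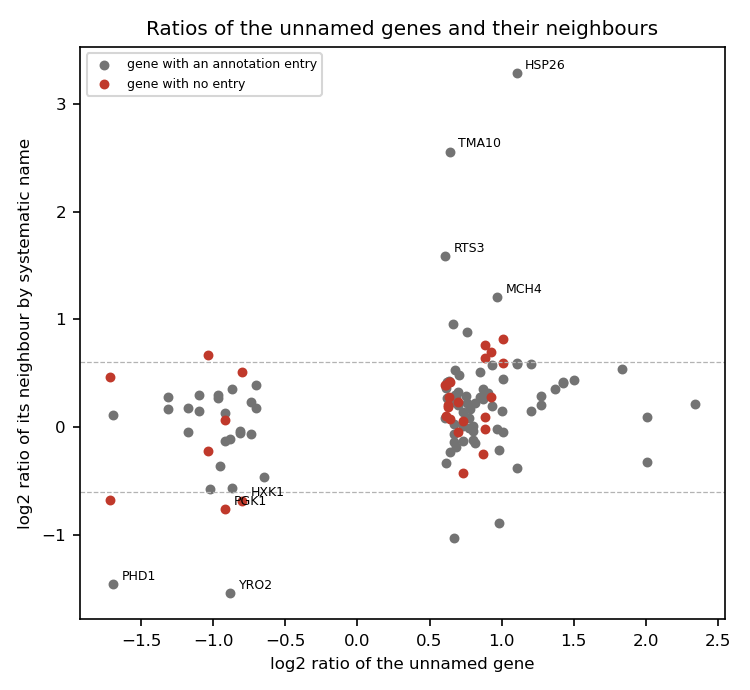
Log2 ratio of each of the 73 genes (horizontal) and of its neighbours of at least 5 CPM by systematic name (vertical), in red for genes with no annotation entry. Dashed lines mark a ratio of 0.6 in either direction, and most neighbours lie between them, with HSP26, TMA10, RTS3 and MCH4 above and PHD1, YRO2, PGK1 and HXK1 below.

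The neighbour of largest ratio was HSP26, a small heat shock protein, 983 nt from YBR071W. HSP26 had 42.5 and 51.6 CPM in wild type and 21.1 and 20.7 CPM in hel2∆, with 70.4 and 72.3 CPM in ncs2∆elp6∆ and 638 and 563 CPM in ncs2∆elp6∆hel2∆, a ratio of 3.29, and changed by 3.13 (adjusted p = 2.21e-07) with loss of HEL2 in ncs2∆elp6∆. In that comparison the value of YBR071W was 0.15 ± 0.11 (SE, adjusted p = 0.417). The member was thus at a like level in both strains without U34 modification, whereas its neighbour was highest by far in the triple mutant.

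A like pair was YLR326W and TMA10, a ribosome-associated protein gene, 230 nt apart. TMA10 had 8.62 and 8.38 CPM in wild type and 8.28 and 7.79 CPM in hel2∆, with 11.8 and 15.1 CPM in ncs2∆elp6∆ and 100.2 and 77.2 CPM in ncs2∆elp6∆hel2∆ and changed by 2.78 (adjusted p = 6.66e-06) with loss of HEL2 in ncs2∆elp6∆, against 0.20 ± 0.13 (SE, adjusted p = 0.364) for YLR326W. YGR161W-C lay 806 nt from RTS3 (ratio 1.59), and YMR103C 155 nt from the kinase gene YPK2 (ratio 0.96), and both named neighbours were called higher with loss of HEL2 in ncs2∆elp6∆, RTS3 at 0.53 (adjusted p = 0.0235) and YPK2 at 0.58 (adjusted p = 0.01). YOL118C lay 246 nt from the transporter gene MCH4, which had 55.9 and 60.1 CPM in wild type and 66.2 and 68.3 CPM in hel2∆, with 143 and 148 CPM in ncs2∆elp6∆ and 148 and 140.1 CPM in ncs2∆elp6∆hel2∆. MCH4 stayed high in the triple mutant, where YOL118C was back near hel2∆.

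Some lower members, too, stood beside strongly lower genes. YKL044W (MMO1) lay 105 nt from PHD1, a transcription factor of filamentous growth, which had 82.02 and 79.6 CPM in wild type and 64.6 and 69.9 CPM in hel2∆, with 27.5 and 24.6 CPM in ncs2∆elp6∆ and 27.4 and 26.9 CPM in ncs2∆elp6∆hel2∆. YBR053C lay 2349 nt from YRO2, a plasma membrane protein gene, which had 66.2 and 76.9 CPM in wild type and 47.99 and 54.2 CPM in hel2∆, with 13.6 and 15.2 CPM in ncs2∆elp6∆ and 27.02 and 27.2 CPM in ncs2∆elp6∆hel2∆. YRO2 rose by 0.97 (adjusted p = 0.00161) with loss of HEL2 in ncs2∆elp6∆, while the value of YBR053C was 0.24 ± 0.09 (SE, adjusted p = 0.154).

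For members with no entry, position could be read only from the systematic name, and overlap with the neighbour was not determined here. YCR013C had 404 and 483 CPM in wild type and 325 and 493 CPM in hel2∆, with 282 and 203 CPM in ncs2∆elp6∆ and 215 and 202 CPM in ncs2∆elp6∆hel2∆. Its neighbour PGK1, the phosphoglycerate kinase of glycolysis, had 4101 and 4431 CPM in wild type and 4194 and 4394 CPM in hel2∆, with 2515 and 2367 CPM in ncs2∆elp6∆ and 2585 and 2649 CPM in ncs2∆elp6∆hel2∆. The ratios were -0.92 and -0.76, and the share of reads that both genes hold in common was not tested. YFR052C-A had a ratio of -0.80 beside -0.68 for HXK1, a hexokinase gene, which fell with loss of HEL2 in the wild-type background at -0.54 (adjusted p = 0.00544) and rose in ncs2∆elp6∆ at 0.66 (adjusted p = 0.000604), while YFR052C-A was at -0.63 ± 0.21 (SE, adjusted p = 0.582) and 0.09 ± 0.22 (SE, adjusted p = 0.842).

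Others of this class were YKR012C (0.93) beside PRY2 (0.70), YHL030W-A (1.01) beside GOS1 (0.82), YCR087W (0.88) beside CSM1 (0.64) and YDR537C (-1.72) beside PAD1 (-0.67), all as log2 ratios. None of the 16 members with no entry was called in any of the 3 comparisons with loss of HEL2, and 1, 2 and 3 of them had an unadjusted p under 0.05. Their replicates also spread more, with a median SD of 19.0% of the mean against 6.40% for members with an entry, at median levels of 13.8 and 25.7 CPM. The spread of YOL134C (0.70), for example, reached from 15.1 to 33.7 CPM within hel2∆. The others of this class, all higher, had ratios of 0.61 (YDL152W), 0.61 (YML031C-A), 0.63 (YOR331C), 0.63 (YDL118W), 0.64 (YML034C-A), 0.73 (YIR036W-A) and 0.87 (YMR141W-A), and no neighbour of theirs passed the ratio in the same direction.

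Among the members themselves, 2 pairs were adjacent by systematic name. YNL057W, which has no entry, and YNL058C, whose product is vacuolar, were both higher. YNL057W had 12.5 and 10.6 CPM in wild type and 8.87 and 9.65 CPM in hel2∆, with 16.99 and 17.5 CPM in ncs2∆elp6∆ and 25.9 and 18.2 CPM in ncs2∆elp6∆hel2∆, and YNL058C had 47.4 and 43.1 CPM in wild type and 50.4 and 46.5 CPM in hel2∆, with 71.4 and 83.4 CPM in ncs2∆elp6∆ and 87.7 and 76.5 CPM in ncs2∆elp6∆hel2∆, so that their ratios were 0.88 and 0.76. YBR012C, also without an entry, and YBR013C differed in sign. YBR012C had 4.36 and 7.62 CPM in wild type and 7.31 and 9.52 CPM in hel2∆, with 3.57 and 4.96 CPM in ncs2∆elp6∆ and 2.34 and 2.19 CPM in ncs2∆elp6∆hel2∆, a ratio of -1.03. Both genes of this pair were under 15 CPM in every library, and both were lower in the triple mutant than in ncs2∆elp6∆, with the fall called for YBR013C and not for YBR012C, whose log2 fold change was -0.86 ± 0.33 (SE, adjusted p = 0.143).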

How the data were processed

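Messenger RNA was measured in 8 libraries, and the authors deposited a table of whole-number read counts per gene, not normalised. Per the labels, poly(A) RNA was prepared with a stranded kit, and the tool and build named are Bowtie and sacCer3. Reads were mapped to coding sequences without adaptor trimming, according to the methods of the study. The counting program, strand setting and treatment of reads matching several genes are not given in the sources used here, so that genes that overlap or share sequence may have been split.

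The members and lists were chosen with earlier results of these data known. Genes named in the text followed a rule on ratio, level, calls, neighbours and annotated symbols, and others were added after their values were seen (YPR078C and the members of the word searches among them). CPM used library totals. Counts of all libraries were fitted with edgeR 4.0.16 (R 4.3.3) with TMM, filterByExpr and 1 mean per strain, and 3 comparisons were tested two-sided with Benjamini-Hochberg adjustment over 6087 genes, called at an adjusted p under 0.05. All 73 members passed the filter. DESeq2 1.42.0, the authors' tool, served as an alternative, beside other scalings, filters, replicate blocks and omission of each library. The test was checked on simulated data. Annotation and sequence were RefSeq R64. The promoter window was set after the files had been seen. Similarity was searched with BLAST 2.17.0.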

Additional observations from a re-analysis of the deposited data

Results flagged for a closer look

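In 3 members the change with loss of HEL2 differed between the backgrounds without and with U34 modification by the test of the difference itself (edgeR's quasi-likelihood test, adjusted over 6087 genes). The difference on the log2 scale was 0.91 for YGR250C (adjusted p = 0.00213), 1.04 for YMR090W (adjusted p = 0.0145) and 0.79 for YLR194C (adjusted p = 0.0408). In CPM scaled by library totals, both triple mutant libraries were above both ncs2∆elp6∆ libraries for all 3 genes, while both hel2∆ libraries were below both wild-type libraries for YGR250C and YMR090W and overlapped them for YLR194C. With TMM scaling YMR090W overlapped too. YGR250C and YMR090W passed the rule mainly through the triple mutant, which favours such a difference. The backgrounds also differed in MET17 expression and in the HIS3MX and URA3 markers, which cannot be told apart from U34 modification here. No group had more than 2 libraries, so no library could be examined as standing apart from its group.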

How the results depend on the processing

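The rule gave 64 members with size factors (36 higher, 28 lower), 146 with no minimum level (116 higher, 30 lower), and 67 to 87 when 1 library was left out (49 to 66 higher, 17 to 23 lower). No member changed sign. In hel2∆ against wild type no alternative called a member, and the 40 calls over all genes became 63 with DESeq2, 17 with only the libraries compared and 19 to 30 with 1 library left out. In ncs2∆elp6∆hel2∆ against ncs2∆elp6∆, the 13 calls among members became 3 to 14 with 1 library left out, and the 422 over all genes became 653 with DESeq2, 869 with only the libraries compared and 69 to 587. For the interaction, the 3 members became 8 with DESeq2 and 1 to 6 with 1 library left out, and the 69 genes became 153 and 40 to 140. The cause of these moves was not tested.

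Replicate numbers do not pair the libraries by the labels, and same-numbered libraries deviated together in only some pairs of strains (correlation from -0.21 to 0.48). With the replicate number as a block, 15 members were called in ncs2∆elp6∆hel2∆ against ncs2∆elp6∆ (663 genes in all), 6 for the interaction (119 in all) and 0 in hel2∆ against wild type. A crossed block, chosen after seeing the data, gave 21, 10 and 0 members and 1265, 322 and 79 genes.

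Of the results for named genes under these alternatives, 1414 stayed on their side of the threshold, 40 passed it and 42 lost it. No result that was called in either fit changed sign. Sign changes without a call in either fit were not counted apart. With 2 libraries per strain and 22 members under 10 CPM, small changes may have been missed.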
